A study of Homo sapiens with 4 samples.

Results

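Fatty acid metabolism was described gene by gene in ARP-1, a line of human myeloma cells, from a list of 50 genes of fatty acid synthesis, activation, mitochondrial oxidation and triacylglycerol storage. Genes were matched by symbol to the Ensembl IDs of the expression table, and 46 of the 50 had a value, of 15201 genes in all. ETFB, DGAT1, AGPAT1 and MGLL are not analysed here. The study set 2 libraries of ARP-1 cells labelled as carfilzomib resistant (CfzR, replicates 1 and 2) against 2 libraries of wild-type ARP-1 cells (WT, replicates 1 and 2). Carfilzomib inhibits the proteasome. The sources used here do not say how resistance was selected, whether the resistant line is 1 clone, or whether the drug was present at harvest. Lipid metabolism is named by the submitters' design text as a theme of these cells, so a list of lipid genes is not independent of the study.

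Fatty acids are built in the cytosol from acetyl-CoA: ACLY supplies it from citrate, ACACA carboxylates it, and FASN assembles a saturated chain that elongases lengthen and desaturases such as SCD make unsaturated. Acyl-CoA synthetases then attach coenzyme A, which commits the chain to phospholipids, to triacylglycerol in lipid droplets, or, through the carnitine shuttle of CPT1A and CPT2, to stepwise oxidation in mitochondria. Myeloma cells are malignant plasma cells with a large secretory endoplasmic reticulum, whose membranes are made from this supply. All 10 plasma cell markers examined had values, with summed levels of 6722 and 6152 FPKM in CfzR against 5916 and 5990 FPKM in WT. Their log2 fold changes ran from -0.58 to 4.10 and were positive for 6 (60%), against 47.1% of all genes tested. A limma adjusted p under 0.05 was reached by 1 of them (10%), against 0.35% of all genes tested. It was SLAMF7, a surface receptor, with 22.1 and 18.7 FPKM in CfzR against 0.282 and 0.198 FPKM in WT (limma adjusted p = 5.25e-04). Its WT values lay below 1 FPKM, the limit on the mean for testing, so SLAMF7 was tested only through its CfzR values. FPKM is the number of fragments scaled to transcript length and to the size of the library, so levels of different genes can be compared roughly. The scaling does not remove the differences by length and GC share between libraries that are given below. Ratios between genes are open to these differences. Of 5 B cell and 8 myeloid markers, 0 had a value in the table, and of 7 stromal and endothelial, 8 T and NK cell and 6 adipocyte markers 1 each had one. These were PDGFRB (6.01 and 4.75 FPKM in CfzR, 4.01 and 3.56 FPKM in WT), GNLY (1.35 and 1.80 FPKM in CfzR, 23.4 and 25.2 FPKM in WT) and CIDEC (0.535 and 1.12 FPKM in CfzR, 1.70 and 0.604 FPKM in WT). GNLY, which encodes a cytotoxic granule protein, fell (log2 fold change -3.30, limma adjusted p = 0.00113).

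No gene of the list passed the test. Of 46 members, 0 had a limma adjusted p under 0.05, where 0.35% of the 13411 genes tested did (0.246% higher and 0.104% lower in CfzR), and the lowest adjusted p among members was 0.138, for ELOVL6. At an unadjusted limma p under 0.05 there were 5 members: ELOVL6, ELOVL7 and FABP5 with higher values in CfzR, and SCD and ECHS1 with lower values. The 3 higher are 6.52% of the members, against 5.32% of all genes, the 2 lower 4.35%, against 5.81%, and the 5 together 10.9%, against 11.1%. Absolute log2 fold changes of at least 0.5 were found for 4 members (8.7%), against 18.8% of all genes. Positive log2 fold changes were found for 26 of the 46 (56.5%), against 47.1% of all genes. With 2 libraries a group and 13411 genes tested, a change can be missed even where it exceeds the spread between libraries. These counts therefore do not show that the genes were unchanged. In bulk RNA, fewer cells of a kind and less RNA per cell cannot be told apart.

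The library of CfzR replicate 1 stood apart and touches many values that follow. Its FPKM summed to 673265, against 877849 in CfzR replicate 2 and 918617 and 955284 in WT. Its log2(FPKM + 1) values correlated with those of CfzR replicate 2 at 0.968 across genes, while CfzR replicate 2 correlated with WT replicate 1 at 0.975 and with WT replicate 2 at 0.973. Across 12896 genes, the difference between the CfzR replicates had a Spearman correlation of 0.47 with transcript length and of -0.35 with GC share. For the WT pair these were 0.15 and 0.079. Among the 46 members the correlation with GC share was -0.56 for the CfzR pair and -0.00043 for the WT pair. Genes are not independent replicates, so these are descriptions. For 26 members (56.5%) the CfzR replicates differed by more than the groups did, as they did for 61.1% of all genes.

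This split between the CfzR replicates differed by role. CfzR replicate 1 was above CfzR replicate 2 for 12 of 14 genes of synthesis and elongation and for all 5 of activation. It was above for 4 of 15 genes of mitochondrial oxidation and 2 of 12 of triacylglycerol and droplets, against 45.4% of all genes tested. It was lower by over 0.3 on the log2 scale for 8 members, TECR, ACADS, ACADVL, ECHS1, ECI1, AGPAT2, PNPLA2 and HILPDA, whose longest transcripts had a median length of 1784 bases. Another 11, among them ACSL3, ACSL4, ELOVL7, SCD and ACADM, were higher by that much and had a median length of 4339 bases. With 1 of the 4 libraries left out, the log2 fold change turned sign for 17 of the 46 members. The counts of 8, 11 and 17 were not made over all genes, so they show nothing particular to these members. Values with a CfzR library left out are given beside some of the members they move.

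**Figure D1:**
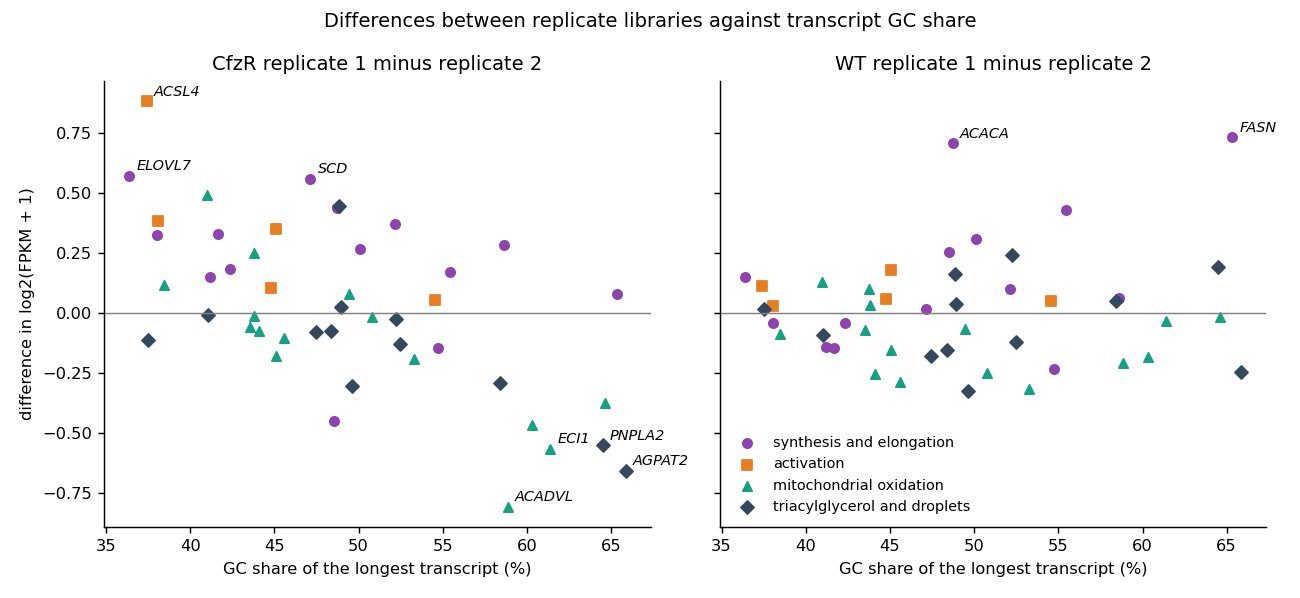
Difference in log2(FPKM + 1) between replicate libraries (vertical axis) against the GC share of each member's longest transcript in percent (horizontal axis), for the CfzR pair (left) and the WT pair (right), with 1 point per member and the symbol and colour giving its role. In the CfzR pair the Spearman correlation was -0.56. AGPAT2 and ACADVL, with a high GC share, lie below 0, and ACSL4 and ELOVL7, with a low GC share, lie above it. Some members go the other way, among them FASN (GC share 65.3%, difference 0.08) and ABHD5 (37.5%, -0.11).

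Promoters are shown for the 3 members with the lowest unadjusted p, since they encode enzymes that act on the same pool of long saturated chains. ELOVL6 lengthens palmitate to stearate, SCD desaturates both, and ELOVL7 is a related elongase. The sequences are RefSeq promoters (GRCh38.p14), from 250 bases before to 50 after the RefSeq start of the gene, written 5′ to 3′ on the gene's strand. They lie at chr4:110198566-110198865 for ELOVL6 (minus strand), chr5:60844220-60844519 for ELOVL7 (minus strand) and chr10:100346983-100347282 for SCD (plus strand). The gene spans given below are from GENCODE and start elsewhere. The ELOVL6 window lies wholly inside its GENCODE span (110045846 to 110199199). Capitals mark matches to the motifs searched.
ELOVL6: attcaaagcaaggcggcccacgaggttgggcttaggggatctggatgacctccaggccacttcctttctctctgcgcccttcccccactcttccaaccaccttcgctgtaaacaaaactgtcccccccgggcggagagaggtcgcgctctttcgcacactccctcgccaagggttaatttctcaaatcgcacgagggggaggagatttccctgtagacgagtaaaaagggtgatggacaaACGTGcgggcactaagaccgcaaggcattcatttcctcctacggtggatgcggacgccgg
ELOVL7: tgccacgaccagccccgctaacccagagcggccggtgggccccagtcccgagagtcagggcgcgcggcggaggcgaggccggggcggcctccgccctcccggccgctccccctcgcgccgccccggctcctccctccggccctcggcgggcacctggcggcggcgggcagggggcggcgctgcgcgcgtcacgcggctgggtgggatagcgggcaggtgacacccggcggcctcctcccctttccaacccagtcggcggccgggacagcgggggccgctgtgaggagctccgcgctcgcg
SCD: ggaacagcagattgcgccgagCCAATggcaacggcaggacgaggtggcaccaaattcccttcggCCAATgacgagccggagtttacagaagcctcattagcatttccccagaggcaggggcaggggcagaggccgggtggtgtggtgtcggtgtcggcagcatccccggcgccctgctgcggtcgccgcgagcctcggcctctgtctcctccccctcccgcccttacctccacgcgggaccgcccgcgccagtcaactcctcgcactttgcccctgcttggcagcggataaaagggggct

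Both strands were searched for 6 motifs, among them 2 sterol regulatory elements that overlap: the 1 of the LDL receptor gene, given by name, and the shorter TCACNCCAC. The others were the E-box TCACGTGA bound by SREBP factors, the CCAAT box, the core ACGTG of the hypoxia element (which that E-box contains), and the direct repeat bound by PPAR factors, given by name. ELOVL6 had 1 match, to the hypoxia core, SCD had 2, both to the CCAAT box, and ELOVL7 had 0. Of 46 members, 38 had a promoter in the RefSeq table. The CCAAT box was in 12 of them (31.6%) and in 35.7% of 27305 promoters, and the hypoxia core was in 7 (18.4%) and in 21.6% of promoters. The shorter sterol element was in 1, that of PNPLA2 (2.63%), and in 1.15% of promoters. The LDL receptor element, the E-box and the PPAR repeat were in 0 of the 38, against 0.0476%, 1.04% and 0.022% of promoters. A missing match says only that these letters are not in this window.

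The 2 members with the largest positive log2 fold changes were both elongases. ELOVL6 (ENSG00000170522, chromosome 4, 110045846 to 110199199 on GRCh38, minus strand) stood at 24.3 and 21.9 FPKM in CfzR replicates 1 and 2, against 11.1 and 12.3 FPKM in WT replicates 1 and 2. Both CfzR libraries were above both WT libraries, by more than either pair's own spread. The means were 23.1 ± 1.76 FPKM in CfzR and 11.7 ± 0.889 FPKM in WT (SD, n = 2 each), a 1.97-fold ratio, with a log2 fold change of 0.92 (SE 0.19, limma adjusted p = 0.138). With CfzR replicate 1 left out it was 0.85, and with CfzR replicate 2 left out 1.00. A correction for length and GC share gave 0.79.

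ELOVL7 (ENSG00000164181, chromosome 5, 60751791 to 60844389, minus strand) had 7.50 and 4.73 FPKM in CfzR, against 2.35 and 2.02 FPKM in WT. The groups did not overlap, but the CfzR libraries were far apart from each other. The ratio of means was 2.80 and the log2 fold change 1.13 (SE 0.26, limma adjusted p = 0.184). Each CfzR library set alone against WT gave 1.42 for replicate 1 and 0.85 for replicate 2, and the correction for length and GC share gave 0.92.

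SCD, the stearoyl-CoA desaturase (ENSG00000099194, chromosome 10, 100347124 to 100364834, plus strand), had 84.4 and 57.1 FPKM in CfzR, against 112 and 110.3 FPKM in WT. Both CfzR libraries were below both WT libraries, and the CfzR libraries differed from each other while the WT libraries nearly coincided. The means were 70.7 ± 19.4 FPKM in CfzR and 111 ± 0.878 FPKM in WT (SD, n = 2 each), with a log2 fold change of -0.67 (SE 0.25, limma adjusted p = 0.389). Set alone against WT, CfzR replicate 1 gave -0.39 and CfzR replicate 2 gave -0.95, and the correction for length and GC share gave -0.73.

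The ratio of ELOVL6 to SCD, taken within a library, was 0.288 and 0.383 in CfzR, against 0.0994 and 0.112 in WT. Both CfzR libraries were above both WT libraries (exact permutation test, two-sided, p = 0.333, the smallest that 2 against 2 libraries allow). The ratio pairs genes chosen for their difference, so it is a description.

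**Figure D2:**
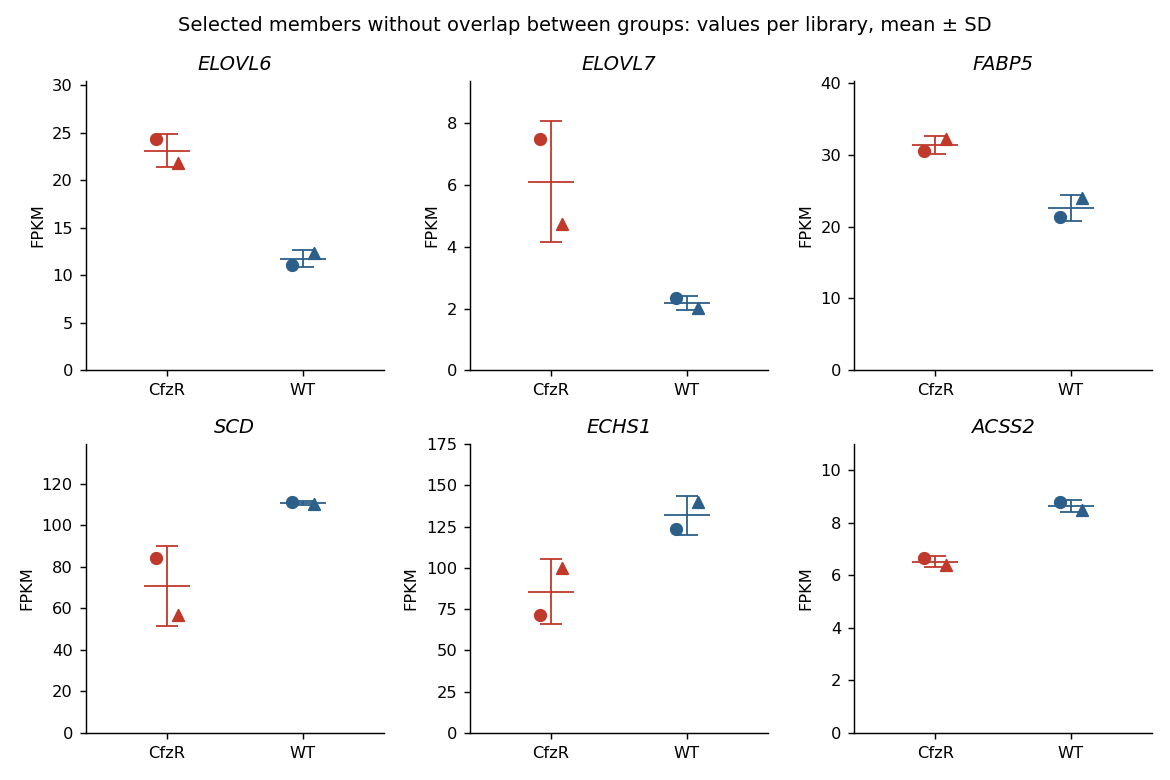
FPKM (vertical axes, from 0) of ELOVL6, ELOVL7, FABP5, SCD, ECHS1 and ACSS2 in the CfzR libraries (left in each panel, red) and the WT libraries (right, blue). Circles are replicate 1, triangles replicate 2, and bars the mean ± SD of 2 libraries. ELOVL6, ELOVL7 and FABP5 were higher in both CfzR libraries, and SCD, ECHS1 and ACSS2 lower in both.

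Of the enzymes that make and join the first units, ACLY, FASN and ACACA had overlapping groups and ACACB did not. ACLY, ATP citrate lyase, had 46.6 and 35.8 FPKM in CfzR against 39.6 and 36.8 FPKM in WT, with a log2 fold change of 0.09 (limma adjusted p = 0.872) that was -0.09 without CfzR replicate 1. FASN had 47.3 and 44.8 FPKM in CfzR, both within the WT values of 58.0 and 34.6 FPKM. Its log2 fold change was 0.04 (SE 0.27, limma adjusted p = 0.964), and here the WT pair was the more spread. ACACA, the cytosolic acetyl-CoA carboxylase, was low, with 1.80 and 1.07 FPKM in CfzR and 2.16 and 0.934 FPKM in WT, and the groups overlapped. ACACB, the carboxylase at the outer mitochondrial membrane whose malonyl-CoA restrains CPT1, had 1.73 and 2.01 FPKM in CfzR against 2.502 and 3.12 FPKM in WT. The groups did not overlap for ACACB (log2 fold change -0.41, SE 0.23, limma adjusted p = 0.547).

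The remaining genes of desaturation and elongation moved little relative to the spread. FADS1 and FADS2, the desaturases of polyunsaturated chains, had means of 5.60 and 5.22 FPKM in CfzR and 6.06 and 6.11 FPKM in WT. Their annotated spans on chromosome 11 overlap on opposite strands (61799625 to 61829318 and 61792980 to 61867354), and the use of strand in counting is not given, so the values of both are uncertain. ELOVL5 and ELOVL1, elongases of polyunsaturated and of saturated chains, had means of 52.6 and 48.6 FPKM in CfzR and 47.4 and 45.8 FPKM in WT, with overlapping groups. So ELOVL6 stood at 0.415 and 0.470 times ELOVL5 in CfzR, against 0.247 and 0.248 times in WT (exact permutation test, two-sided, p = 0.333, the smallest possible). ELOVL6 was chosen for its difference, so this ratio restates that difference and is a description.

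The 3 enzymes that complete each elongation cycle did not go one way. HSD17B12, the ketoacyl reductase, had 79.7 and 63.4 FPKM in CfzR against 56.2 and 57.8 FPKM in WT, without overlap (log2 fold change 0.31, SE 0.21, limma adjusted p = 0.584). Its log2 fold change was 0.15 without CfzR replicate 1 and 0.14 with the correction for length and GC share. HACD3, a dehydratase, had 20.9 and 18.3 FPKM in CfzR and 18.1 and 18.6 FPKM in WT, with overlap. TECR, the enoyl reductase and the most abundant synthesis gene, had 165 and 226 FPKM in CfzR and 268 and 225 FPKM in WT. Its CfzR replicate 2 lay at the level of WT replicate 2, and the log2 fold change of -0.35 was -0.12 without CfzR replicate 1.

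Over the 14 genes of synthesis and elongation the median log2 fold change was 0.06, against -0.02 over all genes tested. Relative to the WT mean, the median was 0.18 in CfzR replicate 1 and -0.06 in CfzR replicate 2, so the resistant libraries fell on opposite sides of 0. Both CfzR libraries were above both WT libraries for 3 genes (ELOVL6, ELOVL7 and HSD17B12) and below for 3 (SCD, ACACB and FADS2), or 21.4% each, against 22.1% and 22.6% of all genes.

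**Figure D3:**
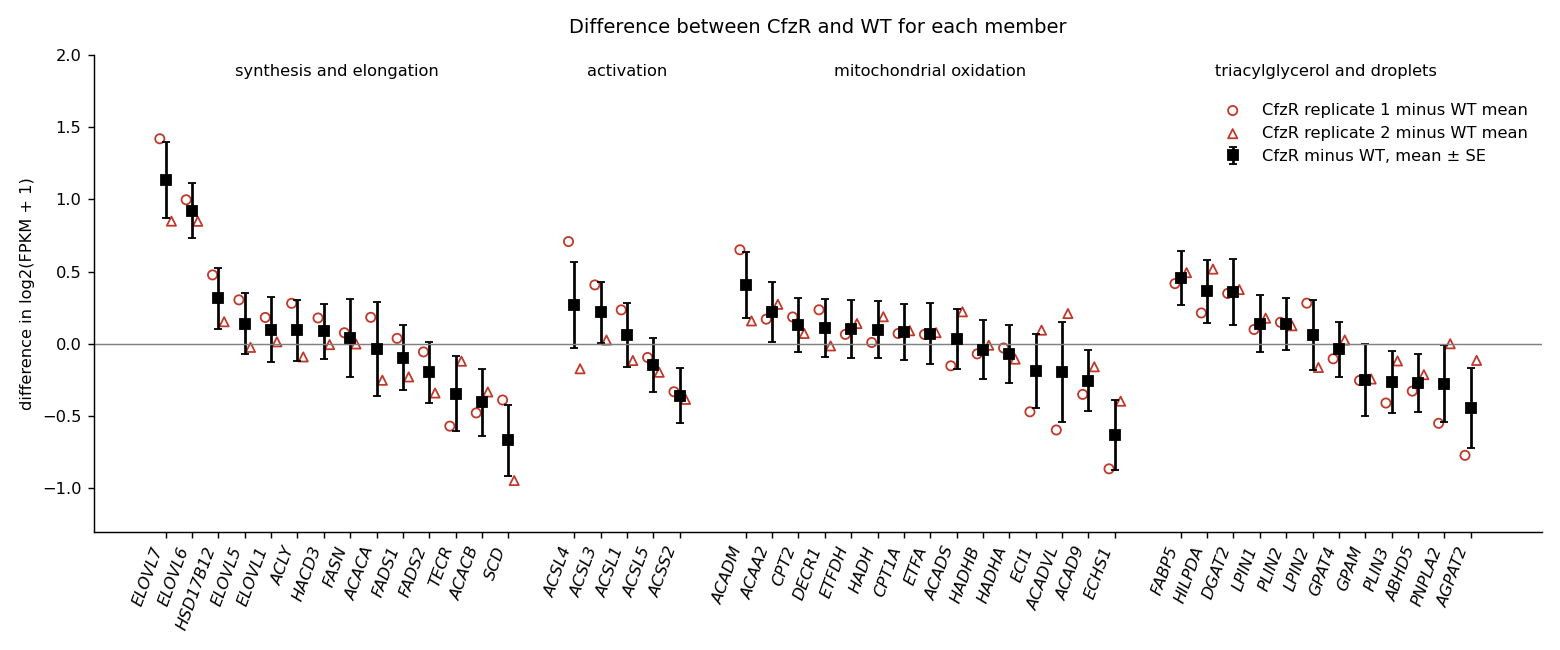
Difference in log2(FPKM + 1) between CfzR and WT for each of the 46 members (vertical axis), sorted within 4 roles along the horizontal axis. Black squares are the fitted difference with its SE, and red circles and triangles are CfzR replicates 1 and 2, each minus the WT mean. Most members lie within 0.5 of 0, ELOVL7 (1.13) and ELOVL6 (0.92) lie highest and SCD (-0.67) and ECHS1 (-0.63) lowest.

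Among acyl-CoA synthetases the resistant libraries differed most for ACSL4. ACSL4, which prefers arachidonate and supplies the polyunsaturated lipids oxidized in ferroptosis, had 25.7 and 13.5 FPKM in CfzR, against 16.03 and 14.7 FPKM in WT. One CfzR library was above both WT libraries and the other below both, and the log2 fold change of 0.27 (SE 0.30, limma adjusted p = 0.737) came to 0.71 for CfzR replicate 1 alone and -0.17 for CfzR replicate 2 alone. ACSL3, the synthetase of nascent lipid droplets, had 29.04 and 22.1 FPKM in CfzR against 21.9 and 21.4 FPKM in WT. The groups did not overlap for ACSL3, though its log2 fold change of 0.22 was 0.03 without CfzR replicate 1. It was 0.02 with the correction for length and GC share.

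ACSS2 makes acetyl-CoA from acetate in the cytosol and nucleus. It had 6.66 and 6.39 FPKM in CfzR, against 8.81 and 8.49 FPKM in WT, and all 4 libraries sat close to their group mean. The log2 fold change was -0.36 (SE 0.19, limma adjusted p = 0.526), and it kept that sign and size with each library left out (-0.38 to -0.33). ACSL5, a synthetase of mitochondria and endoplasmic reticulum, had 27.0 and 25.0 FPKM in CfzR against 29.5 and 28.3 FPKM in WT, also without overlap. ACSL1, the main synthetase of liver and fat, had means of 6.81 and 6.46 FPKM in CfzR and WT, with overlap. The median log2 fold change of the 5 genes was 0.06, with 0.23 in CfzR replicate 1 and -0.17 in CfzR replicate 2.

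Mitochondrial oxidation was the most abundant part of the list, with summed levels of 1340.4 and 1745 FPKM in CfzR against 1556 and 1711 FPKM in WT. CPT1A and CPT2 of the carnitine shuttle differed little between the groups. CPT1A, the gate for long chains, had 24.3 and 24.7 FPKM in CfzR and 21.1 and 25.3 FPKM in WT (log2 fold change 0.08, SE 0.19, limma adjusted p = 0.882). CPT2, its partner on the inner membrane, had 26.6 and 24.5 FPKM in CfzR against 22.5 and 24 FPKM in WT, a log2 fold change of 0.13 (SE 0.19, limma adjusted p = 0.795). Both CfzR values of CPT1A lay inside the WT range, and the groups were narrowly apart for CPT2. The log2 fold change of CPT2 was 0.19 for CfzR replicate 1 alone and 0.071 for CfzR replicate 2 alone. CPT1B, the muscle isoform, which is not on the list and is named after its values were seen, had 10.2 and 17.9 FPKM in CfzR against 19.0 and 19.9 FPKM in WT, without overlap (log2 fold change -0.49, limma adjusted p = 0.535; -0.12 without CfzR replicate 1).

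ECHS1, the short-chain enoyl-CoA hydratase of the second step of each cycle (ENSG00000127884, chromosome 10, 133362480 to 133373689, minus strand), was the oxidation gene with the largest difference. It had 71.7 and 99.6 FPKM in CfzR, against 123 and 140.2 FPKM in WT. Both CfzR libraries were below both WT libraries. The means were 85.7 ± 19.7 FPKM in CfzR and 132 ± 11.8 FPKM in WT (SD, n = 2 each), with a log2 fold change of -0.63 (SE 0.24, limma adjusted p = 0.405). CfzR replicate 1 alone gave -0.87 and CfzR replicate 2 alone -0.40, and a correction for length and GC share gave -0.43. The GC share of its longest transcript was 60.3%.

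The acyl-CoA dehydrogenases, which open each cycle for a given chain length, did not share a direction. ACADVL, for very long chains, was the most abundant member of all, with 430.2 and 753 FPKM in CfzR and 606 and 700.1 FPKM in WT. The CfzR libraries lay on either side of the WT pair, and the log2 fold change of -0.19 was 0.21 without CfzR replicate 1. ACADM, for medium chains, had 34.5 and 24.2 FPKM in CfzR against 22.6 and 20.6 FPKM in WT, without overlap (log2 fold change 0.40, SE 0.23, limma adjusted p = 0.538; 0.16 without CfzR replicate 1). ACADS, for short chains, had means of 24.5 and 23.7 FPKM in CfzR and WT, with overlap. ACAD9, also an assembly factor of respiratory complex I, had 8.459 and 9.799 FPKM in CfzR against 9.804 and 12.46 FPKM in WT, so the groups were almost in contact.

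The subunits of the trifunctional protein differed by less than the spread between libraries. HADHA, its alpha subunit, had 99.9 and 94.7 FPKM in CfzR and 99.6 and 104 FPKM in WT (log2 fold change -0.07, SE 0.20, limma adjusted p = 0.907). HADHB, its beta subunit, had means of 124 and 128 FPKM in CfzR and WT. Their spans on chromosome 2 overlap at the shared start (26190635 to 26244726 and 26243170 to 26290468, on opposite strands). HADH, the short-chain hydroxyacyl dehydrogenase, had means of 56.7 and 52.9 FPKM, and ACAA2, the thiolase that ends a cycle, 73.1 and 62.8 FPKM, in CfzR and WT.

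Of the auxiliary enzymes for unsaturated chains, ECI1, an enoyl-CoA isomerase, had 104 and 154 FPKM in CfzR and 143 and 146 FPKM in WT, with the CfzR libraries on either side of WT, and its log2 fold change of -0.19 was 0.094 without CfzR replicate 1. DECR1, the dienoyl reductase, had means of 53.2 and 49.0 FPKM in CfzR and WT. Of the electron carriers downstream, ETFA, a subunit of the electron transfer flavoprotein, had 154 and 156 FPKM in CfzR against 149 and 146 FPKM in WT, without overlap but with a log2 fold change of 0.07. ETFDH, which passes those electrons to ubiquinone, had 61.9 and 65.3 FPKM in CfzR and 54.1 and 64.7 FPKM in WT, with overlap and a wide WT pair.

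The median log2 fold change over the 15 oxidation genes was 0.07, with 0.01 in CfzR replicate 1 and 0.09 in CfzR replicate 2. CfzR was wholly above WT for 4 of them (ACADM, CPT2, ETFA and ACAA2) and wholly below for 2 (ECHS1 and, by a margin in the third decimal, ACAD9), or 26.7% and 13.3%, against 22.1% and 22.6% of all genes. In this group the difference between the CfzR replicates correlated with GC share at -0.82 across the 15 genes, against -0.28 for the WT pair. The other roles had the same sign in the CfzR pair. The values were -0.90 for the 5 genes of activation, -0.63 for the 12 of triacylglycerol and droplets and -0.40 for the 14 of synthesis and elongation.

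**Figure D4:**
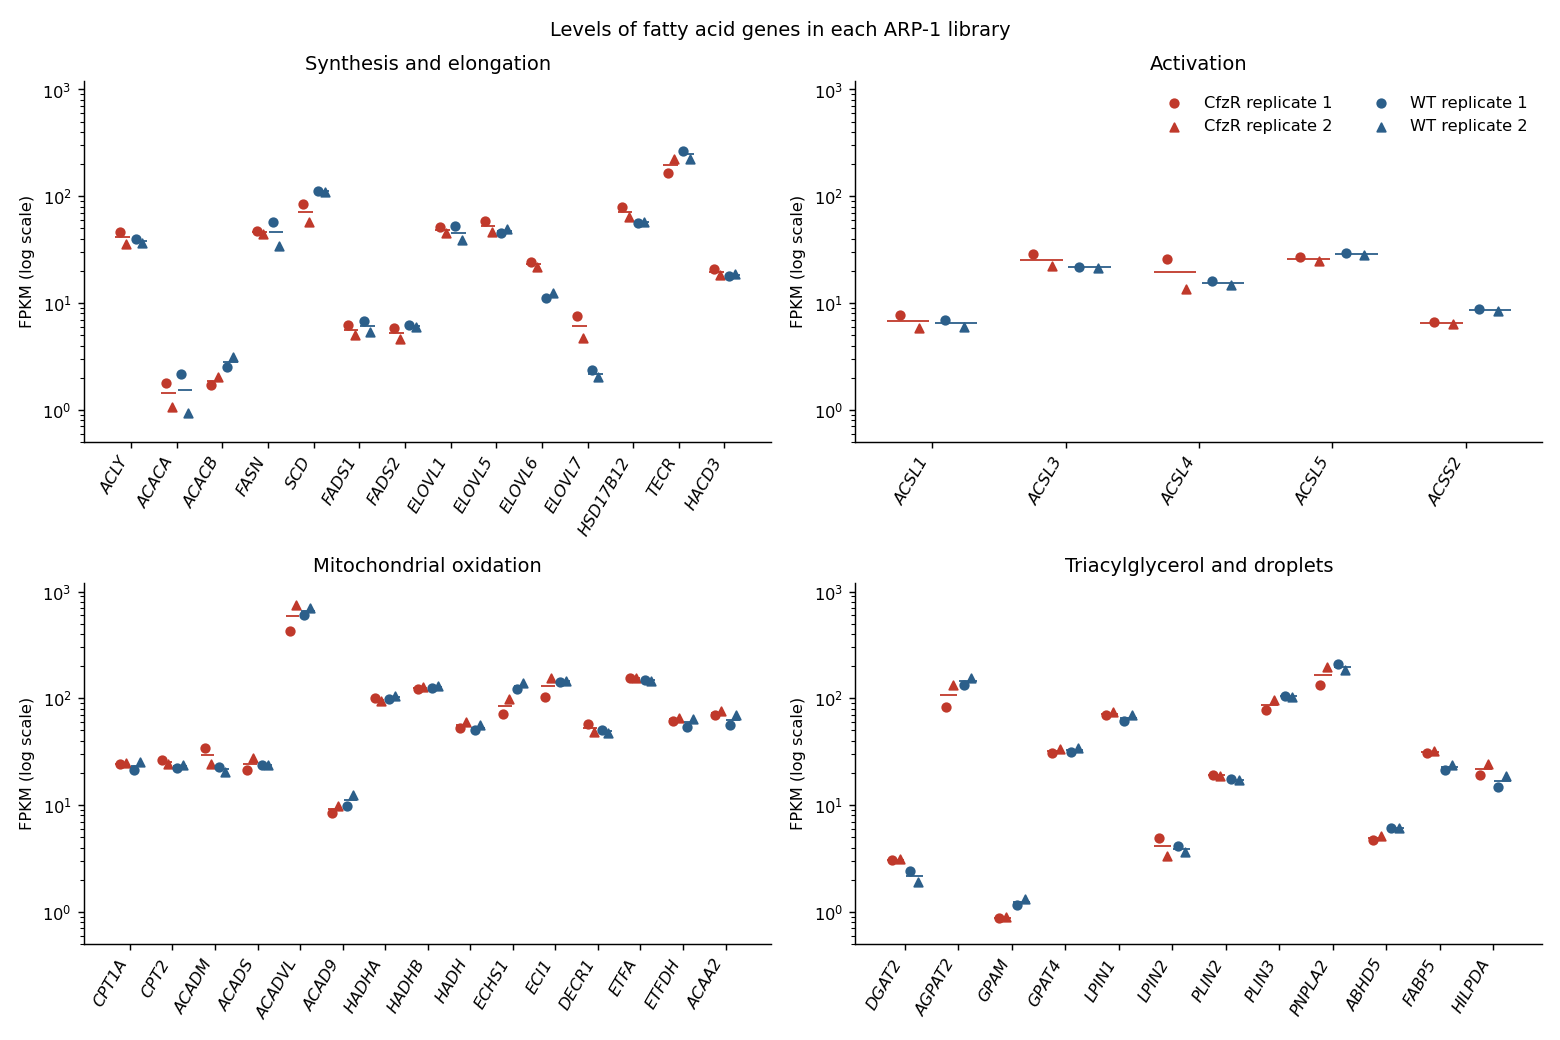
FPKM on a log scale (vertical axes) of the 46 members in 4 panels by role, with CfzR in red to the left of WT in blue for each gene, replicate 1 as circles, replicate 2 as triangles and short lines for the group means. Levels ran from GPAM, at about 1 FPKM, to ACADVL, with 430.2 and 753 FPKM in CfzR and 606 and 700.1 FPKM in WT, and for most members the order between genes is far wider than the distance between groups.

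Among genes of triacylglycerol and droplets, FABP5 had the lowest unadjusted p. FABP5, which carries fatty acids in the cytosol, had 30.5 and 32.2 FPKM in CfzR, against 21.4 and 23.9 FPKM in WT. The groups did not overlap, and the libraries within each were close. The means were 31.4 ± 1.20 FPKM in CfzR and 22.7 ± 1.81 FPKM in WT (SD, n = 2 each), with a log2 fold change of 0.45 (SE 0.19, limma adjusted p = 0.440). CfzR replicate 1 alone gave 0.42 and CfzR replicate 2 alone 0.49, so the resistant libraries were alike. The correction for length and GC share gave 0.59. FABP5 has processed pseudogenes of near-identical sequence, so its value is uncertain where reads could be shared.

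HILPDA inhibits the lipase PNPLA2 and is a known target of hypoxia-inducible factors. It had 19.4 and 24.1 FPKM in CfzR, against 14.7 and 18.7 FPKM in WT, narrowly without overlap (log2 fold change 0.36, SE 0.22, limma adjusted p = 0.554). CfzR replicate 1 alone gave 0.21 and CfzR replicate 2 alone 0.52, and leaving out WT replicate 1 or 2 gave 0.20 and 0.53. PNPLA2 itself, the adipose triglyceride lipase, had 134 and 196 FPKM in CfzR and 209.7 and 183 FPKM in WT. Its log2 fold change of -0.28 (limma adjusted p = 0.700) was -0.00010 without CfzR replicate 1. ABHD5, the activator of PNPLA2, had 4.68 and 5.14 FPKM in CfzR against 6.17 and 6.08 FPKM in WT, without overlap (log2 fold change -0.27, limma adjusted p = 0.622). For ABHD5 the correction for length and GC share gave -0.47.

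The droplet coat genes differed from each other. PLIN2, which coats most droplets outside fat, had 19.3 and 18.9 FPKM in CfzR against 17.5 and 17.0 FPKM in WT. The groups did not overlap, but the ratio of means was 1.10 (log2 fold change 0.14, SE 0.18, limma adjusted p = 0.778). PLIN3, which moves onto droplets from the cytosol, had 78.2 and 96.0 FPKM in CfzR against 106 and 103 FPKM in WT, also without overlap (log2 fold change -0.26, limma adjusted p = 0.650; -0.12 without CfzR replicate 1).

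Genes of glycerolipid assembly followed. DGAT2, one of the acyltransferases for the last acyl chain of triacylglycerol, had 3.03 and 3.11 FPKM in CfzR against 2.44 and 1.92 FPKM in WT, without overlap (log2 fold change 0.36, SE 0.23, limma adjusted p = 0.568). GPAM, the mitochondrial acyltransferase of the first step, had 0.879 and 0.892 FPKM in CfzR against 1.17 and 1.31 FPKM in WT. As the least abundant member it lies near the limit of 1 FPKM used for testing. GPAT4, the isoform of the endoplasmic reticulum, had means of 32.0 and 32.9 FPKM in CfzR and WT, with overlap.

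AGPAT2, the acyltransferase of the second step, had 83.8 and 133 FPKM in CfzR and 132 and 157 FPKM in WT. Its second CfzR library was at the level of the first WT library, and the log2 fold change of -0.44 was -0.12 without CfzR replicate 1. LPIN1, a phosphatidate phosphatase, had 69.9 and 73.8 FPKM in CfzR against 61.2 and 69.4 FPKM in WT, narrowly without overlap (log2 fold change 0.14). LPIN2, its relative, had means of 4.14 and 3.89 FPKM in CfzR and WT. Over the 12 genes the median log2 fold change was 0.01, and CfzR was wholly above WT for 5 and wholly below for 3, or 41.7% and 25%, against 22.1% and 22.6% of all genes.

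Over all 46 members, CfzR was wholly above WT for 13 and wholly below for 10, together 50%, against 44.7% of all genes. As sums, synthesis and elongation held 601 and 576 FPKM in CfzR and 680.1 and 601 FPKM in WT, activation 96.2 and 72.9 against 83.1 and 78.9, and triacylglycerol and droplets 479 and 619.97 against 608 and 619. The exact two-sided permutation p for the 4 sums ranged from 0.667 to 1, where 0.333 is the smallest possible. These sums were not rescaled to the total FPKM of a library. That total was 673265 in CfzR replicate 1 and 877849 in CfzR replicate 2, against 918617 and 955284 in WT. The ratio of summed synthesis to summed oxidation was 0.449 and 0.330 in CfzR and 0.437 and 0.351 in WT (p = 1 by the same exact permutation test). The WT values lay between the CfzR values.

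**Figure D5:**
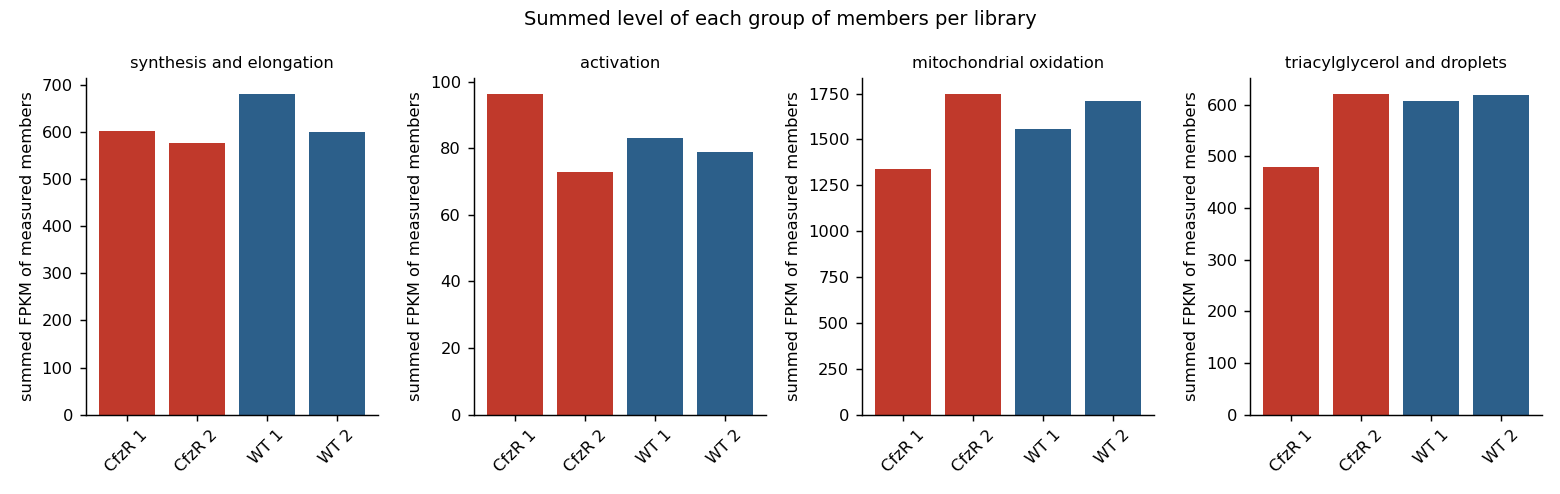
Summed FPKM of the measured members of each role (vertical axes, from 0) in CfzR replicates 1 and 2 (red) and WT replicates 1 and 2 (blue). Oxidation had the highest sum in every library, at 1340.4 and 1745 in CfzR and 1556 and 1711 in WT, and no sum put both CfzR libraries above both WT libraries. The sums are not rescaled to the total FPKM of each library, which was lowest in CfzR replicate 1.

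Beyond the 50 genes, 6 further lists of the same pathways were counted, and 1 gene of them all passed the test. It is 6.67% of the only list that held a call, against 0.35% of all genes, and the other 5 lists held 0. The lists were written with earlier results of these data known, so this share is a description and shows no excess. Of 15 tested genes of peroxisomal oxidation, CROT rose: this carnitine octanoyltransferase, which exports shortened chains from peroxisomes, had 44.97 and 41.1 FPKM in CfzR against 2.59 and 2.51 FPKM in WT (log2 fold change 3.63, SE 0.19, limma adjusted p = 5.25e-04). CROT lies on chromosome 7 (87345681 to 87399795 on GRCh38, plus strand). No gene passed among 10 of other synthesis steps, 12 of activation, uptake and thioesterases, 13 of other mitochondrial oxidation, 11 of other triacylglycerol and droplet genes and 16 of transcriptional control. At an unadjusted limma p under 0.05 these 5 lists held 2 (20.0%), 4 (33.3%), 1 (7.69%), 0 and 0 genes, in that order, and peroxisomal oxidation 3 (20.0%), against 11.1% of all genes. The 4 of activation, uptake and thioesterases were all lower in CfzR, where 5.81% of all genes were lower at that p.

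No regulator of the pathway passed the test. SREBF1, whose product SREBP1 drives the synthesis genes, had 160 and 188 FPKM in CfzR and 184 and 175 FPKM in WT (log2 fold change -0.06, SE 0.22, limma adjusted p = 0.934; 0.06 without CfzR replicate 1). SREBF2, which favours sterol genes, had a log2 fold change of 0.04 (SE 0.21, limma adjusted p = 0.955). INSIG1, which holds SREBP in the endoplasmic reticulum and is itself a target, had 71.2 and 59.4 FPKM in CfzR against 83.4 and 93.8 FPKM in WT, without overlap (log2 fold change -0.44, SE 0.21, limma adjusted p = 0.493). Of the activators of oxidation, PPARA had 4.92 and 5.33 FPKM in CfzR and 4.62 and 6.47 FPKM in WT (log2 fold change -0.08, limma adjusted p = 0.90). PPARGC1A, its coactivator, stood below the limit for testing, at 1.498 and 0.895 FPKM in CfzR and 0.609 and 0.459 FPKM in WT.

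SLC25A20, the carnitine-acylcarnitine carrier between CPT1A and CPT2, had 96.7 and 91.1 FPKM in CfzR and 86.1 and 93.6 FPKM in WT (log2 fold change 0.06, limma adjusted p = 0.915). LIPE, hormone-sensitive lipase, had 26.5 and 28.3 FPKM in CfzR and 27.4 and 29.8 FPKM in WT (log2 fold change -0.06, limma adjusted p = 0.918). CD36, a fatty acid receptor, and G0S2, an inhibitor of PNPLA2, had no value and are not analysed here.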

How the data were processed

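RNA of 4 ARP-1 libraries (2 CfzR, 2 WT) was extracted with TRIzol, per the labels' protocols. The submitters' processing notes name the tools STAR and Cufflinks. Versions, genome build, annotation and strand use were not given. The authors deposited a single table, taken as FPKM from those tools. Columns named as controls were taken as WT, the only other group. Low values showed no step worth 1 read, so sequencing depth is not known.

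Positions, lengths and GC shares are from GENCODE release 29 (GRCh38), which need not be the authors' annotation. limma 3.58.1 (R 4.3.3, eBayes with trend, two-sided) was run on log2(FPKM + 1), which understates changes of low genes, for 13411 genes averaging at least 1 FPKM, with Benjamini-Hochberg adjustment over all of them and a threshold of 0.05. All 46 members with a value passed the filter. Replicates are not stated to be separate cultures, so p-values measure the spread between libraries, which may be technical.

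Members and lists were chosen with earlier results of these data known. Values per library are given for members with an unadjusted p under 0.05 or an absolute log2 fold change of at least 0.5, for a set of named enzymes, and for others where the text compares them. Of the named genes, 1 is not reported here. Alternatives were pseudocounts of 0.1 and 5, other filters (none, 5 FPKM), TMM scaling, quantile normalization, no trend, a replicate block, each library left out, and a spline correction (4 degrees of freedom) for length and GC. The fit was tested on simulated data.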

Additional observations from a re-analysis of the deposited data

How the results depend on the processing

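No member passed the threshold in 12 of the 13 alternative fits. The exception was the replicate block, where 3 passed, ELOVL6, ELOVL7 and SCD (adjusted p = 7.20e-04, 4.20e-04 and 0.032; over the alternatives these ran up to 0.474, 0.402 and 1.00), and where 1242 genes passed in all (9.26%) against 47 in the fit without it. That fit leaves 1 residual degree of freedom a gene. The numbers pair nothing in the labels; the differences of replicate 1 and 2 correlated at 0.25 between groups across genes, with only 2 pairs. Over all genes the count was 27 with a filter at 5 FPKM, which 40 members passed. It was 16 and 17 without CfzR replicate 1 or 2 and 260 and 148 without WT replicate 1 or 2, where the lone library is assumed to vary like the other group, and 1492 at an unadjusted p under 0.05, which 5 members met. The number of members with a positive log2 fold change ran from 21 to 31 over the alternatives.

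With 1 library left out, the median log2 fold change ran from -0.17 to 0.18 for synthesis and elongation, -0.17 to 0.23 for activation and -0.025 to 0.090 for mitochondrial oxidation. Quantile normalization gave 0.17 for oxidation, and correcting for length and GC gave 0.021. The log2 difference in the ratio of synthesis to oxidation was -0.03, and -0.25 to 0.20 with 1 library left out, an alternative chosen after seeing the data. With 1 library left out, signs turned for 17 of the 46 members, a count that was not made over all genes. Among the genes named by rule they turned for ACLY (-0.091 to 0.28 with 1 library left out), FASN (-0.33 to 0.40), CPT1A (-0.044 to 0.21), SREBF1 (-0.17 to 0.060), SREBF2 (-0.055 to 0.13), PPARA (-0.29 to 0.12) and LIPE (-0.12 to 0.0030). Quantile normalization gave 0.13 for HADHA, 0.19 for SREBF1 and 0.012 for LIPE, and the length and GC correction -0.044 for CPT2, 0.044 for SREBF1 and 0.047 for LIPE. Beyond the alternatives' own construction, the cause was not tested.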

Other observations

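Some genes of the further pathway lists, named after their values were seen, lay further from WT than most of the 46 members, and 0 of them passed the threshold as fitted for the report. With the replicate block ELOVL4, SLC27A5, EHHADH and BSCL2 passed (adjusted p = 3.59e-05, 1.49e-05, 0.00254 and 0.0162), and ELOVL4 also passed without WT replicate 1 or 2 (0.0313 and 0.0106). Over the alternatives the adjusted p of these genes ran up to 0.293, 0.394, 0.475 and 1.00, in that order. ELOVL4, an elongase of very long chains, had 2.79 and 2.49 FPKM in CfzR against 0.168 and 0.347 FPKM in WT (log2 fold change 1.53, SE 0.25, limma adjusted p = 0.0892). SCD5, the second stearoyl-CoA desaturase of humans, had 8.93 and 8.33 FPKM in CfzR against 5.29 and 5.33 FPKM in WT (log2 fold change 0.61, SE 0.19, limma adjusted p = 0.323), the opposite direction to SCD, which remained the more abundant of the pair in every library. EHHADH, the bifunctional enzyme of peroxisomal oxidation, had 3.18 and 2.56 FPKM in CfzR against 0.916 and 0.595 FPKM in WT (log2 fold change 1.14, SE 0.25, limma adjusted p = 0.167). The WT values of ELOVL4 and EHHADH lay below 1 FPKM, the limit on the mean for testing. Both genes were therefore tested only through their CfzR values, and their p-values are no independent support for a rise.

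Of the genes named for transport and handling of acyl chains, SLC22A5 was higher in CfzR, while SLC27A5 and DBI were lower. SLC22A5 is not from the list of activation, uptake and thioesterases, whose 12 tested genes had a median log2 fold change of -0.31, against -0.02 over all genes. SLC22A5, the carnitine importer of the plasma membrane, had 2.70 and 2.86 FPKM in CfzR against 1.26 and 1.38 FPKM in WT (log2 fold change 0.70, SE 0.23, limma adjusted p = 0.328). SLC27A5, a very long chain acyl-CoA synthetase known for bile acid conjugation in liver, had 26.7 and 44.5 FPKM in CfzR against 72.4 and 79.5 FPKM in WT (log2 fold change -1.11, SE 0.27, limma adjusted p = 0.205; -1.47 for CfzR replicate 1 alone, -0.76 for CfzR replicate 2 alone). DBI, the acyl-CoA binding protein, had 335 and 529 FPKM in CfzR against 679 and 767 FPKM in WT (log2 fold change -0.78, SE 0.32, limma adjusted p = 0.434; -1.11 for CfzR replicate 1 alone, -0.45 for CfzR replicate 2 alone). BSCL2, seipin, which shapes budding droplets, had 66.2 FPKM in CfzR replicate 1 and 163 FPKM in CfzR replicate 2, against 155 and 202 FPKM in WT replicates 1 and 2.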
